A study of Mus musculus with 6 samples.

Results

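The genes described here are Smcr8, its partners C9orf72 and Wdr41, the folliculin gene Flcn with its partners Fnip1 and Fnip2, the Rag GTPase genes Rraga and Rragc, and the transcription factor genes Tfeb and Tfe3. They are 10 of the 18193 genes with a value, and were taken as all probe sets annotated to exactly 1 of these symbols, 16 in all. Their expression was compared in the hippocampus of 3 mice of genotype Dp(11)17/+ and 3 of genotype +/+, all labelled male, 11 to 14 weeks old and C57BL/6-Tyr c-Brd. By the labels each mouse has 1 Affymetrix mouse array in 1 colour, though their labelling protocol speaks of pools. The chromosome Dp(11)17 carries a second copy of a stretch of mouse chromosome 11, so that Dp(11)17/+ mice hold 3 copies of its genes where +/+ mice hold 2. Potocki-Lupski syndrome, which the mice are meant to model, comes from duplication of the matching stretch of human chromosome 17. The labels do not give its ends, and here it was taken to run from Cops3 to Rnf112, with 33 measured genes. Smcr8 lies within it, and Flcn is the measured gene just before Cops3.

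SMCR8 and C9ORF72 bind each other and, with WDR41, form a complex that is drawn to the lysosome when amino acids are scarce and that acts in autophagy. Folliculin, with FNIP1 or FNIP2, acts on RagC at the lysosome surface. RagC pairs with RagA, and in its active form the pair recruits the growth kinase mTORC1 and presents TFEB and TFE3 to it, which keeps these transcription factors of lysosomal genes in the cytoplasm. A repeat expansion in C9ORF72 causes amyotrophic lateral sclerosis and frontotemporal dementia in humans, and loss of FLCN causes Birt-Hogg-Dubé syndrome. The other 9 genes lie outside the duplicated stretch as taken here. C9orf72, Rraga and Rragc are on chromosome 4, Wdr41 on chromosome 13 and Fnip2 on chromosome 3. Tfeb is on chromosome 17 and Tfe3 on the X chromosome. Fnip1 lies on chromosome 11 as Flcn and Smcr8 do, with 66 measured genes between it and Flcn.

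The promoters of Flcn, Fnip1, Rraga and Rragc are shown because TFEB and TFE3 bind the letters CACGTG, which read the same on both strands. The choice also rested on p-values, as Fnip1 and Rraga had the smallest among the members outside the duplicated stretch. The windows run from 250 bases before to 50 bases after the gene start in RefSeq, build GRCm38.p6, 5′ to 3′, with CACGTG in capitals where it occurs.
Flcn, chr11:59809990-59810289, minus strand: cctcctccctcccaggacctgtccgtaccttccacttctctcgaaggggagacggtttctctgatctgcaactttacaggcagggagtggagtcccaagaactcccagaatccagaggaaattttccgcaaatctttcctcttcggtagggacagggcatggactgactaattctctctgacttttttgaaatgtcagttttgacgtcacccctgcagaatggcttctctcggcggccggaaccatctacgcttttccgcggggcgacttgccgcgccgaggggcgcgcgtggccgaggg
Fnip1, chr11:54437929-54438228, plus strand: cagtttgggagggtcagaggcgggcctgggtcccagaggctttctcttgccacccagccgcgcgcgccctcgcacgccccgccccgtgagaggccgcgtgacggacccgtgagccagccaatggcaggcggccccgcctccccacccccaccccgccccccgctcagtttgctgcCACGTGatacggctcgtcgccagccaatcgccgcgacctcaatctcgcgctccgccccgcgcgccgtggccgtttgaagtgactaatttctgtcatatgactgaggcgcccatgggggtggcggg
Rraga, chr4:86575423-86575722, plus strand: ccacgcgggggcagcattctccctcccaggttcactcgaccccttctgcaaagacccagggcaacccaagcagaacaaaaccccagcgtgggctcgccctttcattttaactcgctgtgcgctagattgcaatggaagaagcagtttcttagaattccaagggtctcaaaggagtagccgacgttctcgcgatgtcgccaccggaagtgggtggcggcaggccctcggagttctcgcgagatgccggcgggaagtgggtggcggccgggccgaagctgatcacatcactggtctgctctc
Rragc, chr4:123917183-123917482, plus strand: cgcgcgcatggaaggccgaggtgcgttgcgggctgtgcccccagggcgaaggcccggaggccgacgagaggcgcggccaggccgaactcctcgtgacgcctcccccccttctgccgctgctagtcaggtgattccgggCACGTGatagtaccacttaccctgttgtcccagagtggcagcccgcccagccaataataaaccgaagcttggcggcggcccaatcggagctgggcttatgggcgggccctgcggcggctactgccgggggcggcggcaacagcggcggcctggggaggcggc
The match begins 75 bases before the start of Fnip1 and 112 bases before that of Rragc. The RefSeq table held 12 windows for 9 of the 10 genes, all but Smcr8. Fnip1 and Rragc were the 2 genes with a match, and the window of Fnip2, not printed, had none. Of all 32851 windows of the table, 7.15% held CACGTG, and of its 27025 genes 8.09% had such a window. Among 42 lysosomal and autophagy genes known as targets of TFEB, 33 had a window and 14 of these held CACGTG, among them Lamp1, Ctsd, Mcoln1 and Atp6v1a. A match describes the letters and is not a measured binding site.

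The arrays had medians of 3.74 to 3.79 on the log2 scale, and 23.9% to 24.9% of the probe sets of an array were at a log2 value of 6 or more, used here as a floor for well-measured genes. The library labelled duplication replicate 1 went against its sex label, with Xist at 9.13 against 3.06 to 3.69 in the other mice and the Y-linked Eif2s3y at 2.48 against 5.41 to 6.01. Duplication replicate 3 stood apart in markers of brain regions, with striatal markers (6 of 8 measured) at a mean log2 value of 7.41 against 5.02 to 5.54 in wild-type mice, thalamic markers (8 of 8) at 7.15 against 4.96 to 5.48, and dentate granule cell markers (6 of 6) at 4.45 against 6.81 to 7.15. CA1 pyramidal markers (5 of 6) were at 6.60 in that mouse against 8.07 to 8.37, and all of the measured CA1 and dentate markers had a mean log2 value of 4 or more. Duplication replicate 1 lay outside the wild-type range the same way for striatal (6.29), dentate (5.79) and CA1 markers (7.52). Duplication replicate 2 lay outside it the other way for dentate (7.85), CA1 (8.52) and thalamic markers (4.86). For CA1 and dentate markers no duplication array thus lay within the wild-type range. In bulk tissue, fewer cells of a type and less RNA per cell cannot be told apart. Values of the 10 genes with duplication replicate 1 or duplication replicate 3 left out are given below. The labels name separate individuals but do not name litters, and their extraction protocol lists organs other than the hippocampus and their labelling protocol speaks of pools, so p-values measure the spread between these 6 arrays, whose number limits the precision.

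At the brightest probe set of each gene, Smcr8 was the member with the largest difference, and it was higher in every Dp(11)17/+ mouse than in any +/+ mouse. None of the 10 genes passed the test over the whole array. Of the 16 probe sets, 0 had an adjusted p under 0.05 by limma, and over all 45037 probe sets 0 were called, or 0%. Before adjustment 1272 of the 45037, or 2.82%, had a limma p under 0.05. At an unadjusted p under 0.05 there were 2 of the 10 genes, Smcr8 and Rraga, where 3.17% of the 18193 genes had one. Groups did not overlap for 2 genes that were higher in Dp(11)17/+ mice, Smcr8 and Fnip1, against 2.7% of all genes in that direction, and for 1 that was lower, Rraga, against 5.59%.

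**Figure D1:**
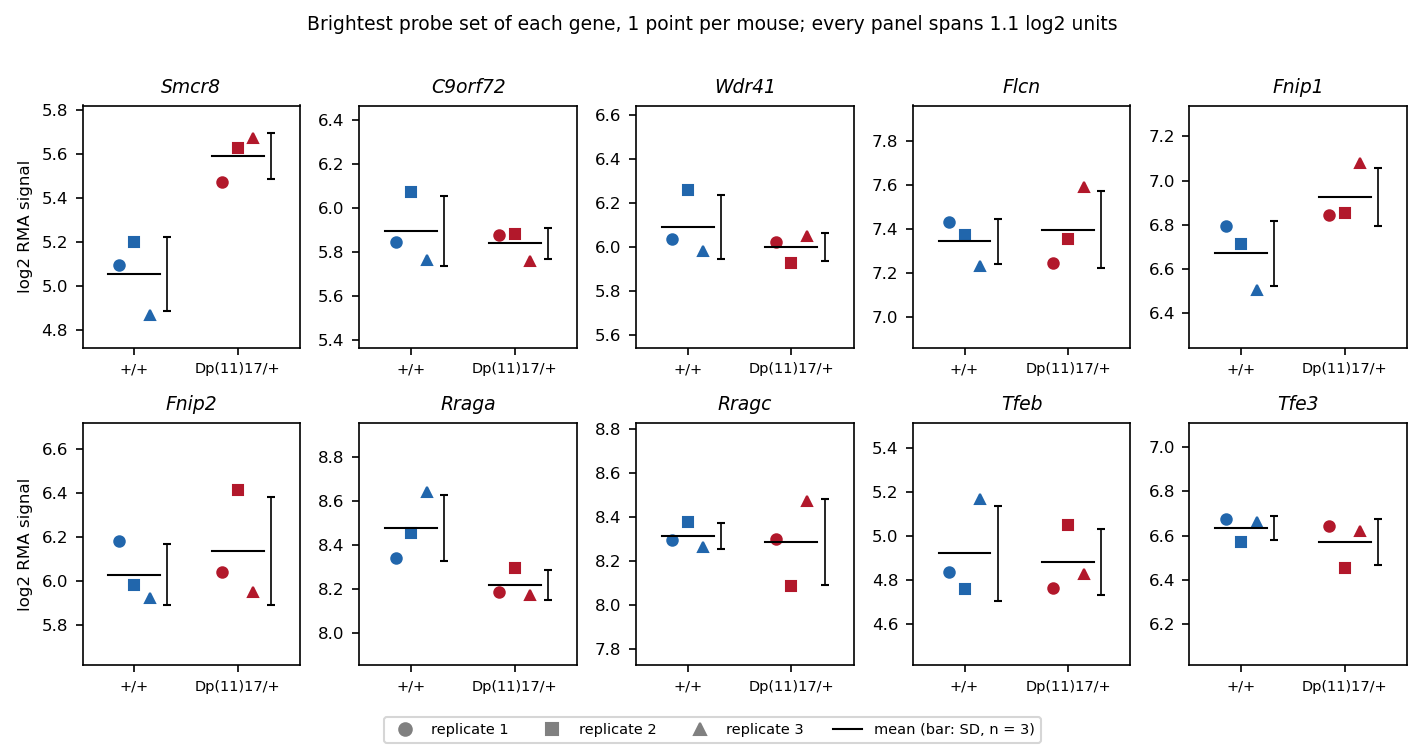
Log2 RMA signal (y axis) of the brightest probe set of each of the 10 genes in the 3 +/+ mice (blue) and the 3 Dp(11)17/+ mice (red). Points are single mice, horizontal lines are group means and vertical bars the SD. Smcr8 and Fnip1 lie higher in all 3 Dp(11)17/+ mice, Rraga lies lower, and the other 7 genes overlap.

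Smcr8, at its brighter probe set, had log2 values of 5.47, 5.63 and 5.67 in Dp(11)17/+ replicates 1, 2 and 3 and of 5.09, 5.20 and 4.87 in +/+ replicates 1, 2 and 3. The lowest Dp(11)17/+ mouse thus lay above the highest +/+ mouse. The means were 5.59 ± 0.10 and 5.05 ± 0.17 (SD, n = 3), a log2 fold change of 0.54 (SE 0.11), or 1.45-fold. The limma p was 0.00183 before adjustment and 0.994 after Benjamini-Hochberg adjustment over all probe sets, and an exact two-sided permutation test gave p = 0.1, the smallest that 3 mice against 3 can give. The 95% confidence interval of the log2 fold change, 0.27 to 0.80, held the value of 3 copies over 2, which is 0.58, and did not hold 0. Leaving out duplication replicate 1 gave 0.60 and leaving out duplication replicate 3 gave 0.50. With both of them left out, which leaves 1 duplication array, replicate 2, against 3 wild-type arrays, it was 0.57. That array too lay outside the wild-type range of regional markers, the other way. With a score of striatal and thalamic over CA1 and dentate markers as a covariate the log2 fold change of Smcr8 was 0.51.

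The second probe set of Smcr8 did not show this difference. Its log2 values were 3.46, 3.80 and 3.32 in Dp(11)17/+ mice and 3.32, 3.53 and 3.49 in +/+ mice, so the groups overlapped, at a mean log2 value of 3.49. Its log2 fold change was 0.08 (SE 0.14), with a 95% confidence interval of -0.24 to 0.40 that lay below 0.58, and its sign turned without duplication replicate 2, at -0.06. The mean over both probe sets was higher by 0.31. Both probe sets lay below the floor of 6.

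The partners of SMCR8 did not share its difference. C9orf72, the gene of its direct partner, had log2 values of 5.88, 5.88 and 5.76 in Dp(11)17/+ mice and of 5.85, 6.07 and 5.76 in +/+ mice. The groups overlapped, and the highest and 1 of the lowest values were both from +/+ mice. The log2 fold change was -0.05 (SE 0.10, 95% confidence interval -0.30 to 0.19, adjusted p = 0.994 by limma), and it turned to 0.03 without wild-type replicate 2. Leaving out duplication replicate 1 gave -0.07, and leaving out duplication replicate 3 gave -0.01. Wdr41, whose product anchors the complex, had log2 values of 6.02, 5.93 and 6.05 in Dp(11)17/+ mice and 6.03, 6.26 and 5.98 in +/+ mice. Its log2 fold change was -0.09 (SE 0.10, 95% confidence interval -0.32 to 0.14), and that of its dimmer probe set was -0.10 (SE 0.16). For the brighter one it was -0.10 with duplication replicate 1 left out and -0.12 with duplication replicate 3 left out. In both genes wild-type replicate 2 was the highest of the 6 mice.

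Mouse by mouse, Smcr8 stood higher relative to each partner in Dp(11)17/+ than in +/+ mice. The log2 ratio of Smcr8 over C9orf72 was -0.41, -0.25 and -0.09 in Dp(11)17/+ mice and -0.75, -0.87 and -0.89 in +/+ mice. Probe sets differ in brightness, so only the gap between the groups has a meaning, and here it was 0.59. For Smcr8 over Wdr41 the ratios were -0.55, -0.30 and -0.38 against -0.94, -1.06 and -1.11, a gap of 0.63. Each of these pairs had groups that did not overlap, with an exact permutation p = 0.1, the smallest possible, and an adjusted p = 0.125 by Benjamini-Hochberg over the 5 pairs compared. With the mean over all probe sets of each gene the gaps were smaller, at 0.36 for C9orf72 and 0.40 for Wdr41.

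Flcn, which borders the duplicated stretch as taken here, differed between the groups by less than the spread of the mice. Its brightest probe set had log2 values of 7.25, 7.35 and 7.59 in Dp(11)17/+ mice and of 7.43, 7.37 and 7.23 in +/+ mice, so that duplication replicate 3 was the highest and the other 5 mice were mixed. The means were 7.40 ± 0.18 and 7.34 ± 0.10 (SD, n = 3), so that the log2 fold change was 0.05, with an SE of 0.11 (adjusted p = 0.994 by limma). The 95% confidence interval, -0.21 to 0.32, lay below 0.58, the value of 3 copies over 2. An interval below 0.58 does not by itself give a copy number. Within the stretch, the intervals of Tmem11 (0.124 to 0.577) and Map2k3 (0.0075 to 0.49), both above the floor of 6, lay below it too. Those of other genes there, such as Flii and Dhrs7b, held it. The sign of the log2 fold change of Flcn was not settled. Leaving out duplication replicate 3 gave -0.04, leaving out wild-type replicate 3 gave -0.0038, and leaving out duplication replicate 1 gave 0.13. The gap between the groups in the log2 ratio of Smcr8 over Flcn was 0.48, from ratios of -1.77, -1.73 and -1.92 in Dp(11)17/+ mice and -2.34, -2.17 and -2.36 in +/+ mice. These did not overlap (exact permutation p = 0.1, adjusted p = 0.125 over the 5 pairs). With the mean over all probe sets of each gene the gap was 0.31.

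The second probe set of Flcn gave an interval below 0.58 too. It had log2 values of 6.39, 6.40 and 6.39 in Dp(11)17/+ mice and 6.61, 6.39 and 6.43 in +/+ mice. Its Dp(11)17/+ mice were nearly equal, with an SD of 0.0043, and wild-type replicate 1 alone stood above the rest. Its log2 fold change was -0.08 (SE 0.09, 95% confidence interval -0.29 to 0.12). The third was at 2.49, 2.60 and 2.75 in Dp(11)17/+ mice and 2.70, 2.63 and 2.47 in +/+ mice, with a log2 fold change of 0.01 (SE 0.10). Its mean log2 value of 2.61 lay below the array medians, so its value says little about a difference in Flcn. It placed the 6 mice in the same order as the brightest probe set did, while the second did not. The identifiers of the brightest and the third end in x_at, which marks probes that can also match other transcripts.

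**Figure D2:**
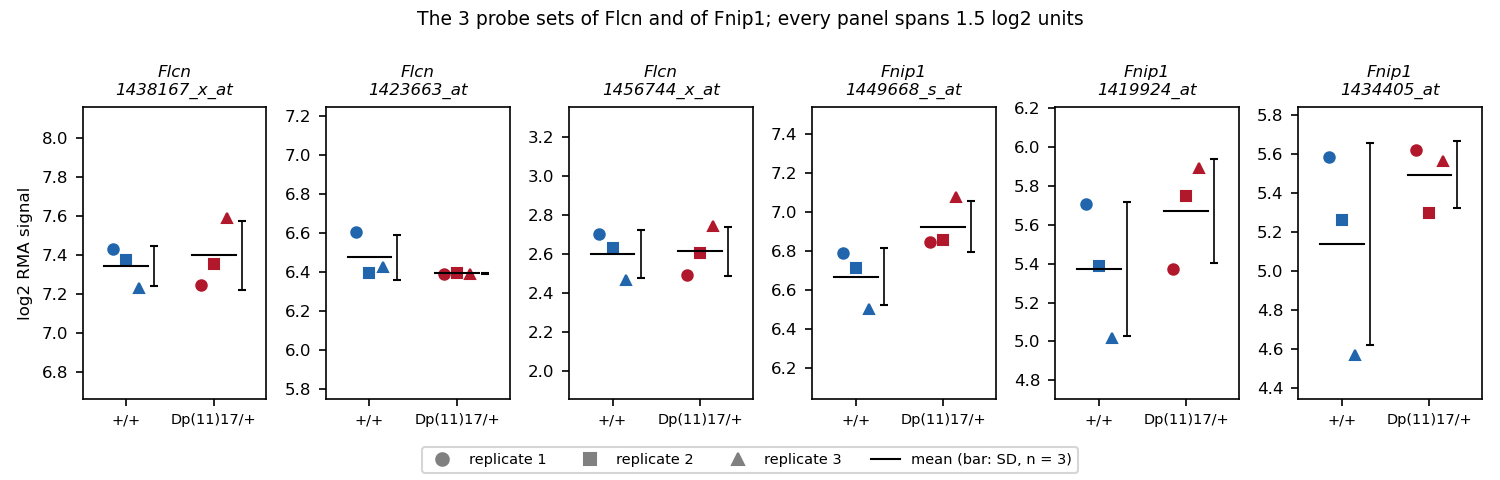
Log2 RMA signal (y axis) of the 3 probe sets of Flcn and the 3 of Fnip1 in +/+ (blue) and Dp(11)17/+ mice (red), with group means and SD. The Flcn panels show overlapping groups with differences of means of 0.05, -0.08 and 0.01, and in each Fnip1 panel wild-type replicate 3 is the lowest mouse.

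Most genes next to Smcr8 had positive differences, while those next to Flcn were mixed. The 3 measured genes before Flcn, the myosin phosphatase partner gene Mprip, 1700007J10Rik and Pld6, had log2 fold changes of 0.02, -0.03 and -0.04, and the last of these turned sign in 3 of 12 alternative fits. After Flcn came Cops3, a subunit gene of the COP9 signalosome, at -0.17 (SE 0.08), then Nt5m, a mitochondrial nucleotidase gene, at 0.40 (SE 0.08), and Med9os at 0.0036, a value whose sign turned in 5 of 12 alternative fits. Around Smcr8 were the actin remodelling gene Flii at 0.52 (SE 0.14), the mitochondrial fission gene Mief2 at 0.46 (SE 0.13) and the topoisomerase gene Top3a at 0.12 (SE 0.13) on one side, and the folate enzyme gene Shmt1 at 0.19 (SE 0.12), Dhrs7b at 0.52 (SE 0.09) and Tmem11 at 0.35 (SE 0.10) on the other. Top3a and Shmt1, like Smcr8, were below the floor of 6, at mean log2 values of 3.68 and 4.71. So were 1700007J10Rik, Pld6 and Med9os, at 2.85, 3.02 and 2.77, below the array medians, and their values near 0 say little about a difference. None of these genes had an adjusted p under 0.05 over all probe sets by limma. Among the 33 measured genes of the stretch, Smcr8 ranked 7 by log2 fold change, and the median was 0.48 for the 20 at or above the floor and 0.12 for the 13 below it, of which Smcr8 is 1.

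**Figure D3:**
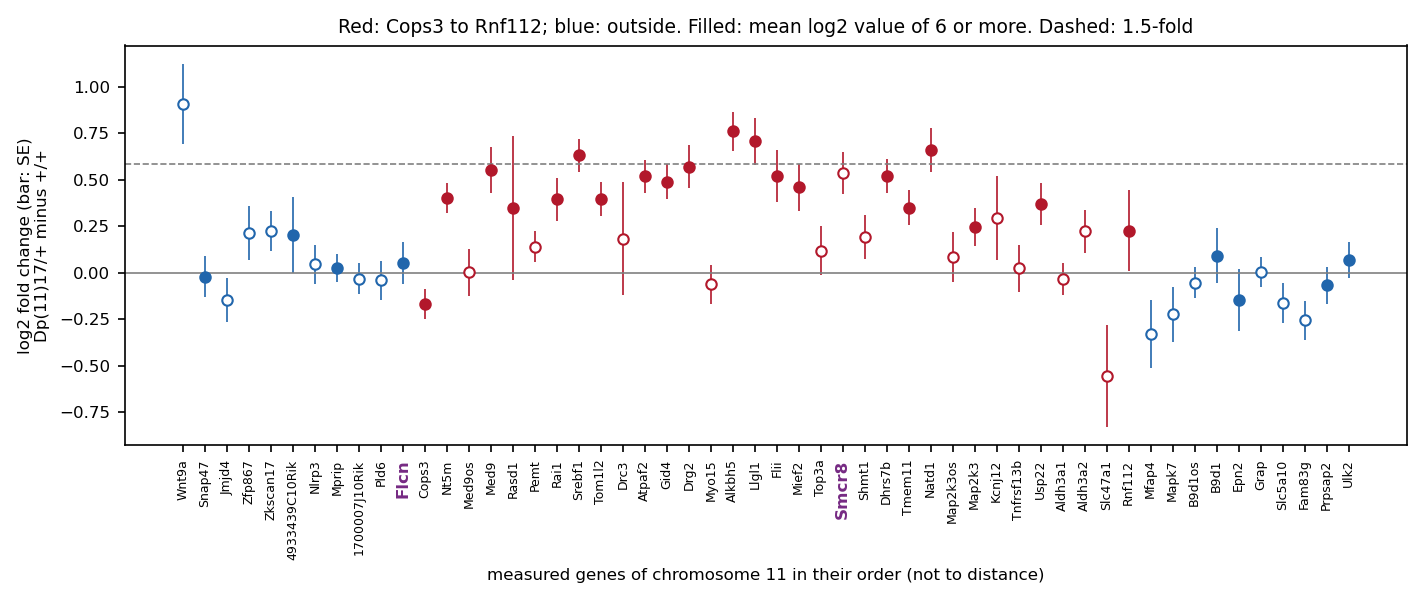
Log2 fold change with its SE (y axis) of measured genes of chromosome 11 in their order, not to distance, from 10 before Flcn to 10 after Rnf112. Genes from Cops3 to Rnf112 are red and others blue, filled circles mark a mean log2 value of 6 or more, and the dashed line is 1.5-fold. Flcn lies at 0.05 and Smcr8 at 0.54.

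Fnip1, a folliculin partner gene, was higher in all 3 Dp(11)17/+ mice at its brightest probe set, though it did not pass the test. The log2 values were 6.84, 6.85 and 7.08 in Dp(11)17/+ mice and 6.79, 6.71 and 6.50 in +/+ mice. The groups did not overlap, with a gap between wild-type replicate 1 and duplication replicate 1 that was small beside the spread within each group. The means were 6.93 ± 0.13 and 6.67 ± 0.15 (SD, n = 3), a log2 fold change of 0.26 (SE 0.11, unadjusted p = 0.0541, adjusted p = 0.994 by limma). The 95% confidence interval was -0.0058 to 0.52, which held 0 and lay below 0.58. With duplication replicate 1 left out it was 0.30, with duplication replicate 3 left out 0.18, and with wild-type replicate 3 left out 0.17.

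The dimmer probe sets of Fnip1 gave the same sign with wider intervals and overlapping groups. Both lay below the floor of 6, at mean log2 values of 5.52 and 5.32. The first had log2 values of 5.37, 5.75 and 5.89 in Dp(11)17/+ mice and 5.71, 5.39 and 5.02 in +/+ mice, a log2 fold change of 0.30 (SE 0.20). The second had 5.62, 5.30 and 5.56 against 5.58, 5.26 and 4.57, a log2 fold change of 0.36 (SE 0.25). Wild-type replicate 3 was the lowest mouse at all 3 probe sets, and without it the dimmer ones were at 0.12 and 0.07. In the log2 ratio of Flcn over Fnip1 the groups did not overlap, at 0.40, 0.50 and 0.51 in Dp(11)17/+ mice and 0.64, 0.66 and 0.73 in +/+ mice, a difference of -0.20 (exact permutation p = 0.1, adjusted p = 0.125 over the 5 pairs). It was -0.31 with the mean over all probe sets of each gene.

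Fnip2, the other folliculin partner gene, had 1 probe set, with log2 values of 6.04, 6.41 and 5.95 in Dp(11)17/+ mice and 6.18, 5.98 and 5.92 in +/+ mice. Duplication replicate 2 was the highest mouse and the groups overlapped. The log2 fold change was 0.11 (SE 0.14, 95% confidence interval -0.23 to 0.44, adjusted p = 0.994 by limma). It was -0.03 without duplication replicate 2 and 0.38 with that mouse alone, so its sign rested on 1 mouse. With duplication replicate 1 left out it was 0.15, and with duplication replicate 3 left out 0.20. The log2 ratio of Flcn over Fnip2 overlapped between the groups, with a difference of -0.05 (exact permutation p = 0.8) that turned to 0.11 without duplication replicate 2 and was -0.11 with the mean over all probe sets.

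**Figure D4:**
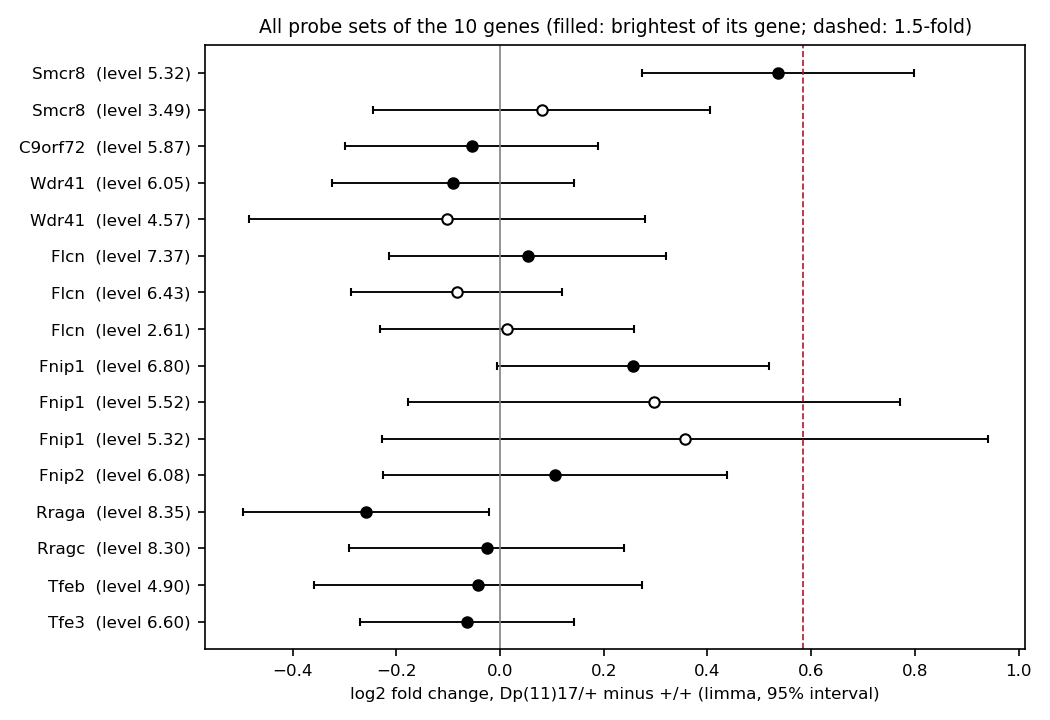
Log2 fold change (x axis, Dp(11)17/+ minus +/+) with its 95% confidence interval from limma for the 16 probe sets, each labelled with its mean log2 level. Filled circles are the brightest probe set of a gene, and the dashed line marks 1.5-fold. The intervals of the brighter Smcr8 probe set and of the 2 dimmer Fnip1 probe sets reach the dashed line, and those of the other 13 do not.

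Rraga, which encodes RagA, was lower in Dp(11)17/+ mice. Its log2 values were 8.19, 8.30 and 8.17 in Dp(11)17/+ mice and 8.34, 8.45 and 8.64 in +/+ mice, with every Dp(11)17/+ mouse below every +/+ mouse. The means were 8.22 ± 0.07 and 8.48 ± 0.15 (SD, n = 3), a log2 fold change of -0.26 (SE 0.10, 95% confidence interval -0.50 to -0.02), or 0.836-fold. The limma p was 0.0364 before and 0.994 after adjustment over all probe sets, so it did not pass the test. The log2 fold change ran from -0.33 to -0.18 with each mouse left out, with -0.24 when either duplication replicate 1 or duplication replicate 3 was the one, and the unadjusted p from 0.0196 to 0.102. Rragc, which encodes RagC, had log2 values of 8.30, 8.08 and 8.47 in Dp(11)17/+ mice and of 8.30, 8.38 and 8.26 in +/+ mice. Here the Dp(11)17/+ mice held both the lowest and the highest value, and the log2 fold change was -0.03 (SE 0.11, 95% confidence interval -0.29 to 0.24), turning to 0.07 without duplication replicate 2. It was -0.03 when duplication replicate 1 was left out and -0.12 when duplication replicate 3 was.

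Of the marker lists of other cell types, those of endothelial cells and meninges did not overlap between the groups. Those of endothelial cells (5 of 6 measured, Pecam1 below a log2 value of 4) had mean log2 values of 6.05 to 6.24 in Dp(11)17/+ and 5.92 to 5.95 in +/+ mice, and those of meninges (6 of 6) 5.79 to 6.10 against 6.23 to 6.26. Microglial markers (6 of 6) were at 7.43 to 7.80 against 7.24 to 7.52, and those of oligodendrocytes (5 of 6) at 10.2 to 10.8 against 10.1 to 10.6, and both of these overlapped. Choroid plexus markers (6 of 6, Kcne2 and Aqp1 below a log2 value of 4) overlapped over a wide range, at 4.84 to 6.87 against 4.40 to 7.72. CA3 pyramidal markers (4 of 5) were at 5.50 and 5.80 in duplication replicates 1 and 3, below the 6.01 to 6.34 of +/+ mice, and at 6.20 in duplication replicate 2. Their part in the values of Smcr8, Fnip1 and Rraga was not tested. With the regional marker score as a covariate, Fnip1 was at 0.18 and Rraga at -0.22.

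The transcription factor genes at the end of the pathway overlapped between the groups. Tfeb had log2 values of 4.76, 5.05 and 4.82 in Dp(11)17/+ mice and 4.83, 4.76 and 5.17 in +/+ mice, below the floor of 6. Its log2 fold change was -0.04 (SE 0.13, 95% confidence interval -0.36 to 0.27), and its sign turned when duplication replicate 1 was left out, to 0.02, or when wild-type replicate 3 was, to 0.08. Leaving out duplication replicate 3 gave -0.01. Tfe3 had log2 values of 6.65, 6.45 and 6.62 in Dp(11)17/+ mice and 6.67, 6.57 and 6.66 in +/+ mice, with duplication replicate 2 the lowest. Its log2 fold change was -0.06 (SE 0.09, 95% confidence interval -0.27 to 0.14), and it was -0.10 with duplication replicate 1 left out and -0.09 with duplication replicate 3 left out. Excluding Smcr8, 6 of the 9 remaining genes had a negative log2 fold change and 3 a positive one, with a median of -0.04. Over all 18193 genes 10605 were negative and 7588 positive, with a median of -0.02. The intervals of all 9 remaining members at their brightest probe set lay below 0.58, as did those of some genes within the stretch.

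Other genes of the pathway were read from 13 lists. Of 99 genes other than the members, 92 were measured, 41 with a positive and 51 with a negative log2 fold change, and the median was -0.04. Of all 18193 genes, 7588 had a positive and 10605 a negative one, and the sign counts of single lists below stand beside this. By limma 0 of the 92 had an adjusted p under 0.05, and 2, both lower, had an unadjusted p under 0.05, or 2.17%, a share below the 3.17% of all genes. These 2 were Nprl2, a subunit gene of the GATOR1 complex that switches off the Rag GTPases, and Rab29, a lysosomal Rab GTPase gene. Leaving out duplication replicate 2 made the count 6, leaving out duplication replicate 3 made it 1, and leaving out wild-type replicate 2 made it 0. Groups did not overlap for 7 of the 92, all lower, or 7.61%, beside 5.59% of all genes, and for 0 in the higher direction beside 2.7%. These counts moved when single arrays were left out. The share of all genes rose too, because groups of fewer mice overlap less readily. With duplication replicate 2 left out they were 18 lower (19.6%, beside 16.1% of all genes) and 9 higher (9.78%, beside 8.81%). With duplication replicate 1 left out they were 15 lower (16.3%, beside 10.1% of all genes) and 3 higher (3.26%, beside 6.06%). With duplication replicate 3 left out they were 12 lower (13%, beside 10.2%) and 1 higher (1.09%, beside 5.38%). With wild-type replicate 1 left out they were 18 lower (19.6%, beside 13.8%) and 2 higher (2.17%, beside 7.23%). With wild-type replicate 2 left out they were 11 lower (12%, beside 10.6%) and 3 higher (3.26%, beside 5.85%). With wild-type replicate 3 left out they were 11 lower (12%, beside 9.08%) and 2 higher (2.17%, beside 6.43%). The 7 were Nprl2, Lamtor5, Prkag1, Rab7, Atp6v1d, Gabarap and Sgsh, and the last 4 are named because their groups did not overlap, after their values were seen.

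**Figure D5:**
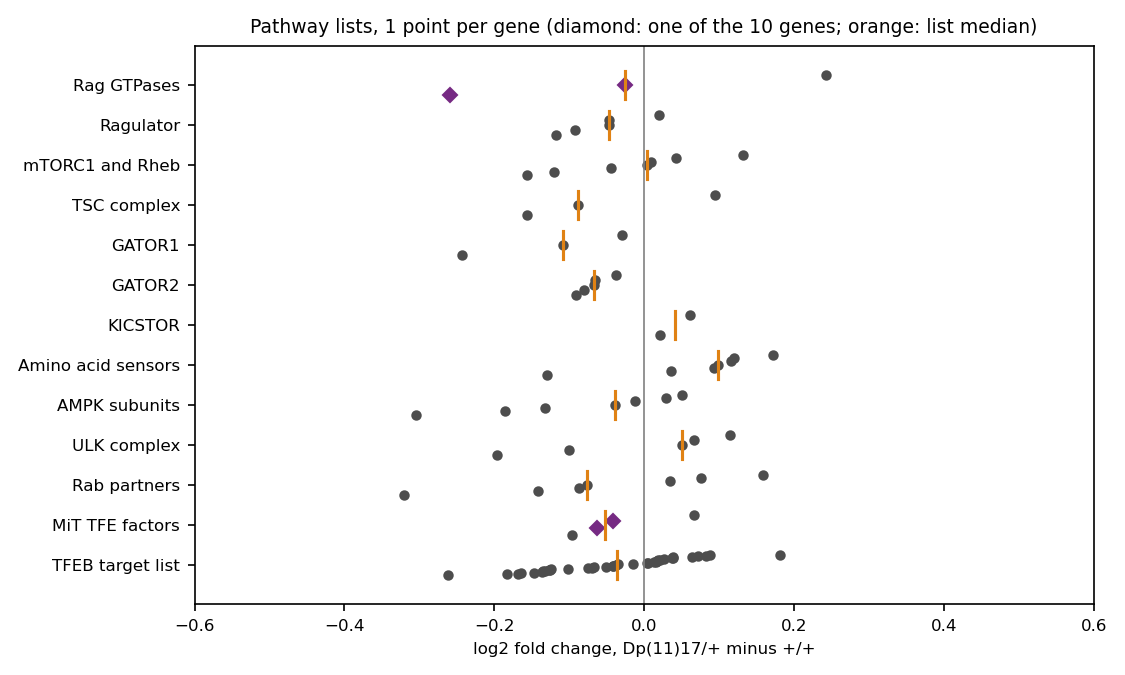
Log2 fold change (x axis, Dp(11)17/+ minus +/+) of each measured gene in 13 pathway lists, 1 point per gene, with the list median as an orange line and the genes Rraga, Rragc, Tfeb and Tfe3 as diamonds. All values lie between -0.32 and 0.24.

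Among the Rag GTPases, Rragd, a partner of RagA like RagC, had a log2 fold change of 0.24 (SE 0.14), with log2 values of 8.37, 7.99 and 8.38 in Dp(11)17/+ mice and 7.90, 8.21 and 7.90 in +/+ mice. Its groups overlapped through duplication replicate 2 and wild-type replicate 2. The Ragulator complex, which holds the Rags on the lysosome, had 4 of 5 subunit genes with a negative value, led by Lamtor5 at -0.12 (SE 0.08) and Lamtor2 at -0.09. Lamtor3 was at -0.05, and its sign turned in 1 of 14 alternative fits. In GATOR1 all 3 genes were negative in the fit of all mice, though Nprl3, at -0.03, turned in 1 of 14 alternative fits. Nprl2 had log2 values of 7.46, 7.33 and 7.37 in Dp(11)17/+ mice and 7.54, 7.76 and 7.59 in +/+ mice, a log2 fold change of -0.24 (SE 0.09, unadjusted p = 0.0306, adjusted p = 0.994 by limma), and Depdc5 was at -0.11. In GATOR2, which restrains GATOR1, all 5 genes were negative in that fit, between -0.09 and -0.04, though Seh1l turned in 2 of 14 alternative fits, with Sec13 at -0.08 and Wdr59 at -0.07. Both measured genes of KICSTOR, the scaffold of GATOR1, were near 0, Itfg2 at 0.06 and Kptn at 0.02, with signs that each turned in 3 of 13 alternative fits. Of the amino acid sensors, 6 of 7 were positive with a median of 0.10, among them Castor2 at 0.12, Castor1 at 0.12 and Bmt2 at 0.10, none with an unadjusted p under 0.05.

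The kinase complexes, the TSC complex and the Rab genes showed small and mixed values. Of the 7 genes of mTORC1 and Rheb, 4 were positive and 3 negative with a median of 0.0045, and Mlst8, a subunit gene of mTORC1, was at -0.12. The mTORC1 inhibitor gene Deptor was at 0.13 (SE 0.31), a value whose sign turned in 2 of 14 alternative fits. Duplication replicate 3 was the highest mouse for it, at 7.28 against 6.03 and 6.37 in the other Dp(11)17/+ mice and 6.27 to 6.74 in +/+ mice. Tsc2, a subunit gene of the TSC complex that switches off Rheb, was at -0.16 with a sign that turned in 1 of 14 alternative fits. The regulatory subunit genes of the energy sensor AMPK, Prkag1 and Prkag2, were at -0.13 (SE 0.08) and -0.30 (SE 0.21), and 5 of 7 genes of that list were negative. In the autophagy-starting ULK complex, Atg101 was at -0.20 and Rb1cc1 at 0.12. Among the Rab genes that work with C9ORF72 or folliculin complexes or at the lysosome, Rab29 had log2 values of 4.92, 4.71 and 4.65 in Dp(11)17/+ mice and 5.23, 5.10 and 4.91 in +/+ mice, a log2 fold change of -0.32 (SE 0.12, unadjusted p = 0.0272, adjusted p = 0.994 by limma), and its lowest +/+ mouse lay just below the highest Dp(11)17/+ mouse. Rab39b was at -0.14 and Rab7b at 0.16.

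Of 42 listed targets of TFEB, 38 were measured, 17 with a positive and 21 with a negative log2 fold change, with a median of -0.04 and 0 at an unadjusted p under 0.05. Atp6v1a, a subunit gene of the lysosomal proton pump, had log2 values of 10.2, 10.3 and 10.1 in Dp(11)17/+ mice and 10.3, 10.4 and 10.6 in +/+ mice, a log2 fold change of -0.26 (SE 0.11, unadjusted p = 0.0506 by limma), and the groups overlapped by duplication replicate 2. The autophagy gene Uvrag was at -0.15 and Gla, the gene of alpha-galactosidase, at -0.18. The 4 named after their values were seen had log2 fold changes of -0.08 for Rab7, -0.13 for Atp6v1d, -0.13 for Gabarap and -0.12 for Sgsh.

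As a description over 6 arrays, with no test, the 5 genes at or above the floor whose values followed Smcr8 most closely were Snhg6 (Pearson r = 0.97), Abl1 (0.96), Ncl (0.96), Itih5 (0.96) and Cenpb (0.95), out of 7097 genes compared. None of the 5 lies on chromosome 11. Those that followed the brightest probe set of Flcn were Rnf13 (Pearson r = 0.995), Mrpl34 (0.99), Omg (0.99), Aggf1 (0.99) and Vmp1 (0.98). In each of them duplication replicate 3 was the highest mouse. Of these, Omg and Vmp1 lie on chromosome 11, outside the duplicated stretch as taken here. With 6 arrays and 7097 genes, values of this size describe these arrays only.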

How the data were processed

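The authors deposited log2 values, 1 for each probe set on each array, computed with RMA, per the submitters' processing notes; RMA corrects background, normalizes quantiles over the arrays and summarises probes. Its version and a genome build are not given in the sources used here. They were used as deposited. After 64 control probe sets were left out, 45037 probe sets were tested, of which 34945 had 1 gene symbol, 932 several and 9160 none. Symbols, chromosomes and gene order came from the RefSeq table of GRCm38.p6 through Entrez identifiers, which matched 34741 of the 34945. A gene is given by its probe set with the highest mean.

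Groups were compared with limma 3.58.1 in R 4.3.3 (lmFit and eBayes, two-sided, 7.11 degrees of freedom), with Benjamini-Hochberg adjustment over all 45037 probe sets and a threshold of 0.05. Ratios of 2 genes were compared with an exact permutation test over 20 labelings. The fit was tested on simulated data.

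The members, lists and tests were chosen with earlier results of these data known. Named genes were the 10 members, up to 3 genes of each list by smallest unadjusted p, 3 measured neighbours on each side of Smcr8 and Flcn, and the 5 genes most like each by Pearson r. Alternatives were other scalings, variance models, array weights, floors of 4 and 6, a regional marker covariate, the mean over probe sets, and each array left out. Chosen after seeing the data were the values without duplication replicates 1 and 3, which were not fitted or tested, and the counts of non-overlapping groups with arrays left out.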

Additional observations from a re-analysis of the deposited data

How the results depend on the processing

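None of the 16 member probe sets was called in any of the alternative fits run for it. The log2 fold changes of 8 of the 16 kept their sign throughout, among them Smcr8, Wdr41, Rraga and Tfe3 at their brightest probe set and all 3 probe sets of Fnip1. Smcr8 had its lowest value, 0.31, as the mean over both probe sets, and its unadjusted p ran from 0.000991 to 0.0153; at a floor of 6 it is left out. Flcn turned to -0.0062 with array weights, -0.026 with the regional covariate and -0.0057 as the mean over its probe sets, its dimmest probe set to -0.043 with array weights and -0.036 with the covariate, and Tfeb to 0.036 with the covariate. With 1 array left out, ranges were -0.044 to 0.13 for Flcn, -0.054 to 0.074 for its dimmest probe set, -0.13 to 0.081 for Tfeb, -0.058 to 0.19 for the dimmer Smcr8 probe set, -0.034 to 0.20 for Fnip2, -0.12 to 0.075 for Rragc, -0.12 to 0.034 for C9orf72 and -0.24 to 0.054 for the dimmer Wdr41 probe set. The gap in Flcn over Fnip2 ran from -0.24 to 0.11. For the other 4 pairs, and for Smcr8, Fnip1 and Rraga at their brightest probe set, the groups did not overlap, so leaving out an array could not turn the sign, and array median centring cancels in a ratio within an array.

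Over the whole array, 1 probe set, of no member, was called with an intensity trend and robust prior and 1 with array weights, and 0 with all arrays in the main setting. Those at an unadjusted p under 0.05 numbered 1272, and 307 at a floor of 6, 508 at a floor of 4, where fewer are tested, and 850 to 2765 with 1 array left out. Pathway genes other than members numbered 2, 1 at a floor of 6, and 0 to 6 with 1 array left out. The cause was not tested. No paired analysis was possible because the replicate numbers were given in accession order and pair no mice.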
